A study of Mus musculus with 20 samples.

Results

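A set of 10 genes of the S100 family were followed through chronically inflamed and control epithelia of the mouse, with S100a8 and S100a9 set against the other members. The members were chosen by name: S100a8, S100a9, S100a3, S100a4, S100a6, S100a10, S100a11, S100a13, S100a14 and S100a16, which are 10 of the 17 S100 genes and of the 55471 genes in the count table. Earlier results of these data were known when they were chosen. Bulk RNA sequencing had been performed on 20 libraries of WT mice, with 5 libraries in each of 4 groups. Skin samples were the epithelial skin (the epidermis of the back) of mice that received DNFB, a contact allergen, in acetone on 3 days per week for 22 days, or acetone alone over the same course, from an age of 4 to 6 weeks. Pancreas samples came from mice injected with caerulein, a peptide that overstimulates enzyme secretion, in PBS, or with PBS alone, 6 times per day on 3 days per week for 3 weeks at 50 µg/kg caerulein. All 4 groups shared the WT genotype, and each inflamed group was compared with the vehicle control of its own tissue.

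S100 proteins are small calcium-binding proteins with EF-hand motifs, which mostly act as dimers. S100A8 and S100A9 pair into calprotectin, which neutrophils, monocytes and stressed keratinocytes release as an alarmin that is sensed through TLR4 and RAGE and that starves microbes of zinc and manganese. The other members largely work inside cells, where they bind annexins, myosin and other partners, and several belong to the epidermal differentiation complex, the gene cluster that serves the skin barrier.

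All 10 members lie on chromosome 3 of GRCm38. S100a8 (ENSMUSG00000056054) spans chr3:90668978-90670035 on the plus strand and S100a9 (ENSMUSG00000056071) spans chr3:90692632-90695721 on the minus strand. S100a13, S100a14, S100a16, S100a3, S100a4 and S100a6 lie in this order between 90514435 and 90624181. S100a11 (chr3:93520488-93526287) and S100a10 (chr3:93555080-93564643) form a second site. The gene model of S100a4 shares 51.7% of its exon bases with the model Gm42674. That of S100a3 shares 4.61% with the models that overlap it, Gm42674 among them. Counts of S100a4 in particular could therefore be divided between models.

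The bases before the starts of the alarmin pair are shown because both genes were higher in every DNFB library than in any acetone library, and those of S100a11 because it was the member that passed the test in pancreas. RefSeq promoters of GRCm38 were found for 8 of the 10 members, all except S100a10 and S100a14. Each sequence is written from 5′ to 3′ on the gene's own strand and ends before the first annotated start. Capitals mark matches on either strand to the C/EBP core TTGCNNAA, the AP-1 site TGANTCA, the STAT site TTCNNNGAA or the TATA box TATAAA, none of which overlapped another match.
S100a8, chr3:90668821-90668977, plus strand: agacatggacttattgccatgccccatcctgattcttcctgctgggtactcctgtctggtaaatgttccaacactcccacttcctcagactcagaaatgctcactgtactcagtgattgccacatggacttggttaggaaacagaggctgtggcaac
S100a9, chr3:90695722-90695971, minus strand: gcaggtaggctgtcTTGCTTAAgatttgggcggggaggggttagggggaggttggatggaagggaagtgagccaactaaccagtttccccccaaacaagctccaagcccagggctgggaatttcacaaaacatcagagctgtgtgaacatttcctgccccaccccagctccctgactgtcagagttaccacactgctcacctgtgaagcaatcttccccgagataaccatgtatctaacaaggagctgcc
S100a11, chr3:93520246-93520487, plus strand: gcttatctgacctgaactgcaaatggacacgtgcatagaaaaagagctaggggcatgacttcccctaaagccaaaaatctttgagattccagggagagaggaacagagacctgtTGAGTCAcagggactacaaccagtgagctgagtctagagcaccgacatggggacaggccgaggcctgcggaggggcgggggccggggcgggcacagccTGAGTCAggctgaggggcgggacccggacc
In the 250 bases before the RefSeq start, S100a9 held 1 C/EBP match, as did 9.6% of the 32851 promoters of the table. S100a11 held 2 AP-1 matches (6.7% of promoters held any), both with the same letters TGAGTCA. S100a8 held a TATA box 30 bases before its RefSeq start, in the 93 bases that the GENCODE model counts as exon and that are not printed (12.4% of promoters held one). No STAT match was found in these 3 windows (7.0% of promoters held one). A match describes letters only.

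Library totals ranged from 791491 to 2232039 counts, but 11 satellite-like predicted genes took most of them, and 70021 to 1074202 counts remained for all other genes. The acetone libraries with label numbers 11 and 12 stood apart from acetone libraries 1 to 3 in depth, and caerulein libraries 10 and 20 were the deepest of their group, so results are given with and without these pairs. Keratinocyte markers were present in skin (12 of 12 with counts in both groups, summed level 434 to 4441 normalized CPM) and acinar markers in pancreas (12 of 12, 863 to 88550 normalized CPM). Nothing in the labels states that libraries of a group came from separate mice, so p-values measure the spread between these samples, which may be technical. Normalized CPM are counts scaled to a common library size (CPM) over the retained genes of a tissue, after TMM scaling. In bulk samples, fewer cells of a type and less RNA per cell cannot be told apart.

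S100a8 and S100a9 were the members that differed most in skin. S100a8 was measured at 3.22, 2.84, 0, 1.37 and 1.07 normalized CPM in acetone libraries 1, 2, 3, 11 and 12. In DNFB libraries 4, 5, 6, 13 and 14 it reached 10.1, 69.6, 17.2, 135 and 299 normalized CPM. Every DNFB library lay above every acetone library, with the lowest DNFB value in library 4 and the highest in library 14. S100a8 was higher in DNFB-treated skin by 6.20 on the log2 scale (standard error 1.06, n = 5 per group, adjusted p = 0.0460, edgeR quasi-likelihood test with Benjamini-Hochberg adjustment over 7265 genes).

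S100a9, the larger subunit of calprotectin, was measured at 3.22, 0, 0, 0 and 1.61 normalized CPM in acetone libraries 1, 2, 3, 11 and 12. The same gene gave 10.1, 61.1, 17.6, 108 and 407 normalized CPM in DNFB libraries 4, 5, 6, 13 and 14. The groups again did not overlap, and libraries 13 and 14 were the highest for both subunits. On the log2 scale S100a9 differed by 7.15 ± 1.31 (standard error), at an adjusted p of 0.0555 in edgeR, and this missed the threshold of 0.05. With DESeq2 both genes passed, S100a8 at 6.04 (adjusted p = 1.2e-07) and S100a9 at 6.98 (adjusted p = 2.8e-07). Two-sided exact permutation tests gave p = 0.00794 for each gene, the smallest that 5 against 5 libraries allow.

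**Figure D1:**
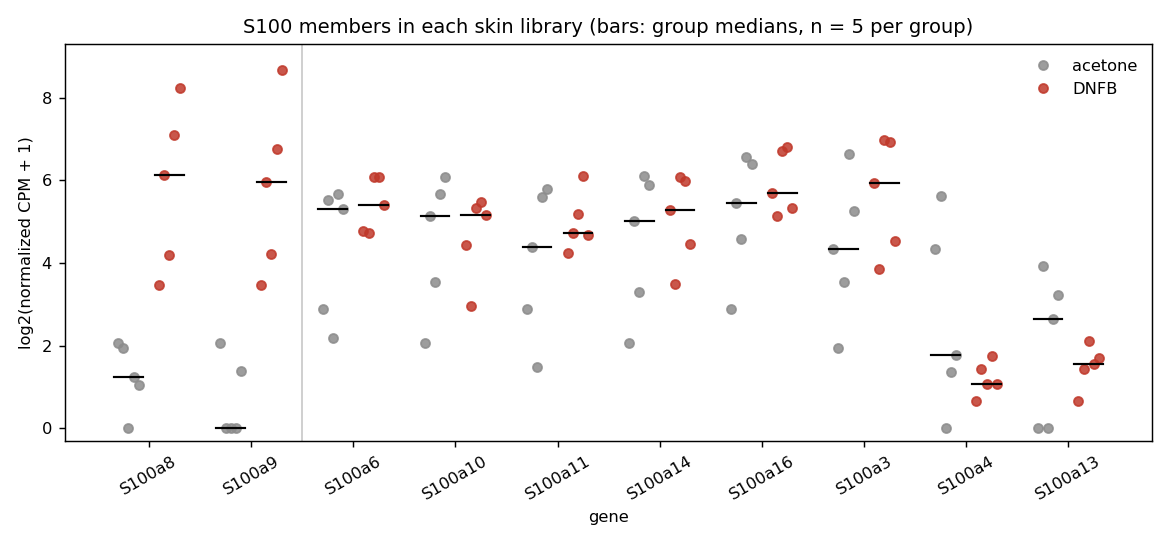
Level of the 10 members in each skin library as log2(normalized CPM + 1), with acetone libraries in grey, DNFB libraries in red and a black bar at the median of each group of 5. S100a8 and S100a9, left of the vertical line, are the members whose groups do not overlap, while the grey and red points of the other members overlap.

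Of the 10 members, 8 passed the filter on low counts in skin (S100a4 and S100a13 did not), and 1 of these 8 passed the edgeR test, against 0.0413% of all 7265 genes tested. By DESeq2, 2 members passed, against 0.358% of genes. Groups that did not overlap, with DNFB higher, were seen for 2 of 10 members and for 1.08% of the genes with at least 10 counts in skin. The study had already named S100a8 and S100a9 as increased in both tissues from this sequencing. These shares therefore describe a chosen set and do not test the family. S100a8 and S100a9 passed the filter through the DNFB libraries, since acetone libraries held at most 7 counts of either. Both differences were present among libraries with label numbers 1 to 10 (mean S100a8 2.02 in 3 acetone and 32.3 in 3 DNFB libraries, normalized CPM) and among those numbered 11 to 20 (1.22 in 2 acetone and 217 in 2 DNFB libraries).

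The call for S100a8 rested on several libraries. Its adjusted p in edgeR was 0.0735 without acetone library 1, 0.155 without 2, 0.0906 without 11 and 0.206 without 12, and it was 0.0913 without DNFB library 5 and 0.102 without 13. S100a9 passed the threshold without acetone library 3 (adjusted p = 0.0372) and without DNFB library 4 (0.0258), 6 (0.0286) or 14 (0.0372). Without acetone libraries 11 and 12, a choice made after seeing the data, S100a8 was higher by 5.86 and S100a9 by 6.96 on the log2 scale, both at an adjusted p of 0.165.

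Markers of other cell types were measured beside the pair. Of 97 marker genes 50 were tested in skin and 0 passed in edgeR, against 0.0413% of all 7265 genes tested. At an unadjusted p under 0.05 in edgeR there were 14 markers, against 214 genes higher and 208 lower among the 7265. DESeq2 called 7 markers, among them the wound keratins Krt6a, Krt6b and Krt16, against 0.358% of genes. Neutrophil markers had counts for 12 of 13 genes in acetone (Camp was at 0) and 13 of 13 in DNFB, with a summed level of 23.8 to 51.6 and 20.8 to 108 normalized CPM. The highest neutrophil sum, 108, was in DNFB library 14, the library with the most S100a8 and S100a9. Pan-leukocyte markers (7 of 7 in both groups) ranged from 28.5 to 141 in acetone and 40.5 to 459 in DNFB, again highest in library 14. Markers of inflamed or wounded keratinocytes (7 of 7 in both groups) ranged from 37.4 to 520 and from 205 to 5028, and library 14 was the lowest DNFB library here. Macrophage and monocyte markers (11 of 11 in both groups) ranged from 39.2 to 1022 in acetone, highest in library 12, and from 43.5 to 393 in DNFB, highest in library 14. The median log2 fold change of the tested markers was -0.98 for macrophages and monocytes (5 tested), -1.37 for Langerhans cells (4), -1.86 for fibroblasts (5) and -0.59 for keratinocytes (12). It was 4.28 for inflamed or wounded keratinocytes (5), 1.53 for hair shaft (5), 1.24 for melanocytes (5) and 0.87 for pan-leukocyte markers (7). Of the neutrophil and duct lists 1 gene each was tested, Il1r2 (-0.50) and Sox9 (-0.24). The part of these cells in the result was not tested.

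The annexin-binding members were close to each other in both skin groups. S100a10, the light chain that binds annexin A2, was measured at 3.22, 34.1, 10.7, 50.2 and 66.9 normalized CPM in acetone libraries 1, 2, 3, 11 and 12. It gave 20.8, 6.79, 39.6, 43.5 and 34.6 normalized CPM in DNFB libraries 4, 5, 6, 13 and 14, within the acetone range. The difference on the log2 scale was -0.24 ± 0.64 (standard error) for S100a10, with an adjusted p of 0.983 in edgeR. S100a11, a partner of annexin A1, ranged from 1.78 to 54.8 normalized CPM in acetone and 17.9 to 68.2 in DNFB, and differed by 0.30 ± 0.66 on the log2 scale (edgeR, adjusted p = 0.976). S100a6 (calcyclin), which binds several annexins, ranged from 3.56 to 49.6 and from 25.5 to 66.9 normalized CPM, and differed by 0.61 ± 0.63 on the log2 scale (edgeR, adjusted p = 0.967).

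The epithelial members also overlapped between acetone and DNFB. S100a14 ranged from 3.22 to 67.9 normalized CPM in acetone and from 10.2 to 67.3 in DNFB, and differed by 0.18 ± 0.68 on the log2 scale (edgeR, adjusted p = 0.990). S100a16 ranged from 6.44 to 93.7 and from 34.0 to 111 normalized CPM, and differed by 0.41 ± 0.65 on the log2 scale (edgeR, adjusted p = 0.976). S100a3, which is known from the hair shaft cuticle, was measured at 19.3, 2.84, 10.7, 97.8 and 37.3 normalized CPM in acetone libraries 1, 2, 3, 11 and 12. Its DNFB values were 60.1, 13.6, 126, 121 and 22.3 normalized CPM in libraries 4, 5, 6, 13 and 14, and the groups overlapped. S100a3 differed by 0.96 ± 0.78 on the log2 scale (edgeR, adjusted p = 0.965). Hair shaft markers (10 of 10 in both groups) were high in the same libraries, at 454 in acetone 11 and 868 and 930 normalized CPM in DNFB 6 and 13. They were also high in DNFB 4, at 511 normalized CPM, where S100a3 (60.1) was below its level in acetone 11 (97.8). The part of these markers in the level of S100a3 was not tested.

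Acetone libraries 11 and 12 were high for several of these 6 members. The means of S100a14 were 14.5 normalized CPM in acetone libraries 1 to 3 and 63.1 in 11 and 12, and those of S100a10 were 16 and 58.5. Among libraries numbered 11 to 20, the means in acetone and DNFB were 67.5 and 71.9 normalized CPM for S100a3, 63.1 and 41.7 for S100a14 and 51.1 and 46.4 for S100a11 (n = 2 per group, not tested). Without acetone libraries 11 and 12, the log2 fold changes became 2.80 for S100a3, 2.07 for S100a11, 1.64 for S100a14, 1.63 for S100a16, 1.47 for S100a6 and 1.02 for S100a10, with adjusted p between 0.333 and 0.732 in edgeR. The sign of S100a10 turned in that fit, and none of these 6 members passed the test in any of the skin fits tried.

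S100a4, a myosin-binding protein of mobile mesenchymal and myeloid cells, was too low to be tested across genes. It was measured at 19.3, 48.3, 0, 1.56 and 2.42 normalized CPM in acetone libraries 1, 2, 3, 11 and 12, and at 0.595 to 2.35 in DNFB libraries. The high acetone values were those of libraries 1 and 2, with 6 and 17 counts. S100a13, which takes part in the release of proteins without a signal peptide, ranged from 0 to 14.2 normalized CPM in acetone and from 0.595 to 3.36 in DNFB. Two-sided exact permutation tests gave (5 against 5 libraries) p = 0.302 for S100a4 and p = 0.659 for S100a13. Without acetone library 3, the library with no S100a4 counts, the exact permutation p of S100a4 was 0.0317. Fibroblast markers (7 of 7 in both groups) ranged from 142 to 641 normalized CPM in acetone and from 114 to 188 in DNFB, and their part was not tested.

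**Figure D2:**
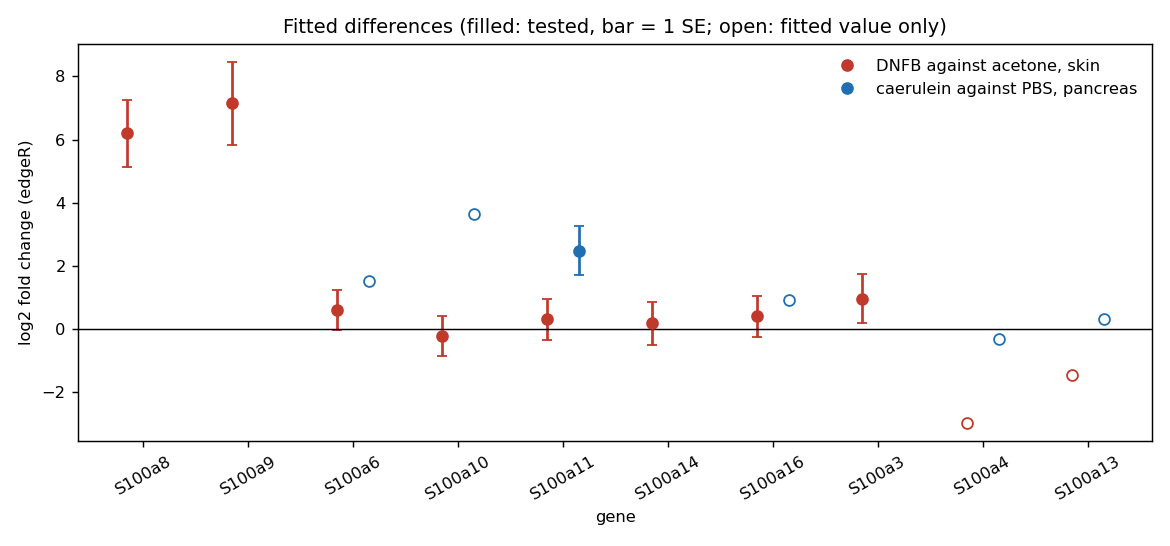
Log2 fold change of each member as fitted by edgeR, with DNFB against acetone in red and caerulein against PBS in blue, filled points with a bar of 1 standard error for tested members and open points for members that failed the filter on low counts. S100a8 (6.20) and S100a9 (7.15) stand above all other skin values, and no pancreas value is drawn for S100a8, S100a9, S100a3 and S100a14, which had at most 2 counts in any PBS library.

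Across the 10 skin libraries the Pearson correlation of log2 normalized CPM was 0.97 between S100a8 and S100a9, and it lay between 0.01 and 0.48 between either of them and the other 6 tested members. Among those 6 it was highest for S100a14 with S100a16 (0.96), S100a10 with S100a14 (0.94) and S100a6 with S100a11 (0.93), and lowest for S100a3 with S100a10 (0.42), which is below S100a8 with S100a6 (0.48). These values describe 10 libraries that share their depth and their treatment, and the value for the pair spans the difference between groups.

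The genes most like S100a8 among 7265 were Arg1 (r = 0.96), Spp1 (0.95) and Il1b (0.95), which encode arginase, osteopontin and a cytokine of myeloid cells. Those most like S100a9 were Acod1 (0.98), Il1b (0.96) and Arg1 (0.94). S100a3 was most like Ppp2r1b, Krt27 and Lef1 (each 0.96), the last of which is a transcription factor of the hair follicle. The pattern of S100a14 was matched by Pdia3, Nde1 and Xab2 (each 0.99) and that of S100a16 by Atp5d (0.99), P4hb and Cttn (each 0.98).

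**Figure D3:**
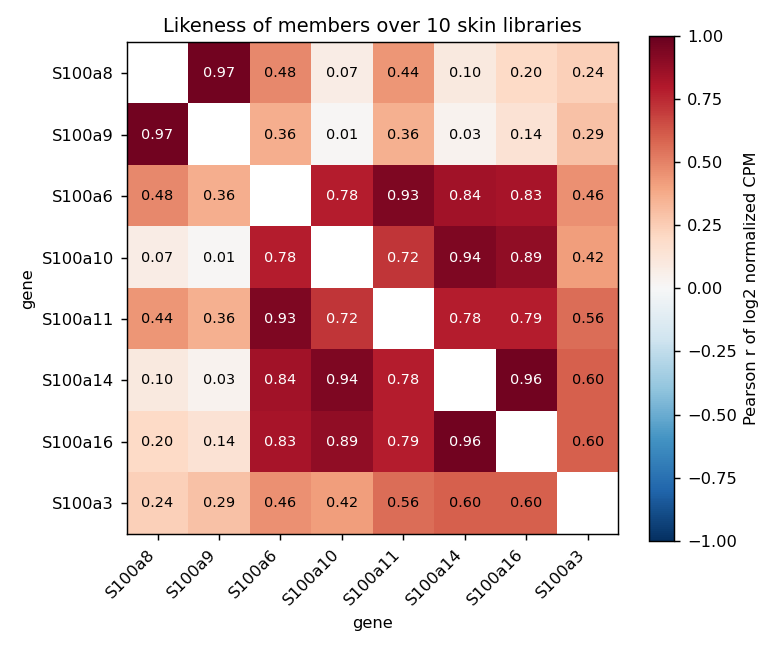
Pearson correlation of log2 normalized CPM between the 8 members that passed the filter in skin, over 5 acetone and 5 DNFB libraries, with the colour scale from -1 to 1 and the value written in each cell. The cell of S100a8 and S100a9 holds 0.97, and the cells that join either of them to the other 6 members hold 0.01 to 0.48.

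In pancreas, S100a10 and S100a11 were the members with the clearest difference between caerulein and PBS. S100a11 was measured at 2.93, 8.72, 0, 0 and 0 normalized CPM in PBS libraries 7, 8, 15, 16 and 17. It gave 7.27, 19.4, 9.36, 10.04 and 33.4 normalized CPM in caerulein libraries 9, 10, 18, 19 and 20. The groups met in 1 place, where caerulein library 9 lay below PBS library 8. S100a11 was higher with caerulein by 2.47 ± 0.78 on the log2 scale (standard error, edgeR over 946 genes, adjusted p = 0.0428).

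It was the 1 member of 10 that passed the filter in pancreas, where 12.2% of tested genes passed the test. S100a11 passed that filter mainly through the caerulein libraries, since PBS libraries held at most 10 counts. DESeq2 gave S100a11 a log2 fold change of 2.93 (adjusted p = 0.0415). The edgeR call was lost without any one of 8 libraries, with an adjusted p of 0.137, 0.183, 0.176 and 0.164 without PBS 7, 15, 16 and 17, and 0.0815, 0.0528, 0.0680 and 0.144 without caerulein 10, 18, 19 and 20. The adjusted p was also over the threshold in an edgeR fit of all 20 libraries (0.120) and with the satellite-like genes left out (0.0729). Without PBS 8 the log2 fold change was 4.2 (adjusted p = 0.0110). Without caerulein libraries 10 and 20, left out together after seeing the data, it was 1.71 (adjusted p = 0.454).

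S100a10 was measured at 0, 3.49, 1.98, 0 and 0 normalized CPM in PBS libraries 7, 8, 15, 16 and 17. In caerulein libraries 9, 10, 18, 19 and 20 it reached 4.85, 31.3, 10.9, 18.5 and 16.7 normalized CPM, and every caerulein library lay above every PBS library. The fitted log2 fold change was 3.64, or 3.12 to 5.12 without single libraries (5.12 without PBS 8), and a two-sided exact permutation test gave p = 0.00794. DESeq2, which keeps low genes, gave 4.26 (standard error 1.01, adjusted p = 0.00265). The exact permutation p stayed at or below 0.0159 without any single library (n = 4 against 5) and was 0.0357 without caerulein 10 and 20 together. S100a10 was the 1 member whose pancreas groups did not overlap, against 1.55% of genes with at least 10 counts.

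The alarmins were detected mainly in caerulein-treated pancreas. S100a8 had 0 counts in all 5 PBS libraries. It reached 0, 34.3, 1.56, 8.76 and 8.85 normalized CPM in caerulein libraries 9, 10, 18, 19 and 20, so that 4 of 5 had counts and library 9 had none. Against a floor of 3 counts per PBS library, its mean was at least 2.33-fold higher with caerulein, and at least 1.04-fold without caerulein library 10. The two-sided exact permutation test gave p = 0.0476. S100a9 was measured at 0, 0, 0, 0 and 3.09 normalized CPM in PBS libraries 7, 8, 15, 16 and 17, which are 2 counts in all. It gave 1.21, 41.7, 0, 8.76 and 6.88 normalized CPM in caerulein libraries 9, 10, 18, 19 and 20. Pooled over libraries, the ratio of S100a9 counts was 30.7 (95% exact interval 8.43 to 255, counting error only), and 11.2 (2.98 to 94.1) without caerulein library 10. For S100a9 the two-sided exact permutation test over libraries gave p = 0.0873.

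Caerulein library 10 held 383 of the 534 counts of the pair in this group. Leaving out any 1 PBS library gave an exact permutation p of 0.0873 for S100a8, and leaving out caerulein library 18 gave 0.0238 for S100a9. Without libraries 10 and 20, the exact permutation p was 0.107 for S100a8 and 0.375 for S100a9. By DESeq2, which S100a8 entered through its caerulein counts alone, S100a8 passed (adjusted p = 0.0411), S100a9 did not (adjusted p = 0.0776), and 3 members passed with S100a10 and S100a11, against 8.74% of genes. Of the 9 members left out of the edgeR fit, S100a8 and S100a10 were higher at an exact permutation p under 0.05, against 7.9% of genes with at least 10 counts.

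Among the remaining members, S100a6 had 333 counts over all caerulein libraries, as many as S100a10, and the others had fewer. S100a6 ranged from 0 to 17.4 normalized CPM in PBS and from 6.24 to 32.3 in caerulein (exact permutation p = 0.0556), and 2 of 5 caerulein libraries lay above every PBS library. S100a16 ranged from 0 to 11.7 and from 1.56 to 21.8 normalized CPM (exact permutation p = 0.325). S100a13 ranged from 0 to 4.36 and from 0 to 5.16 (exact permutation p = 0.667), and S100a4 from 0 to 8.99 and from 0.780 to 8.13 normalized CPM (exact permutation p = 0.690). S100a3 held 4 counts over all PBS libraries and 11 over all caerulein libraries, and S100a14 held 1 and 4, so that no difference was detectable at this depth.

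**Figure D4:**
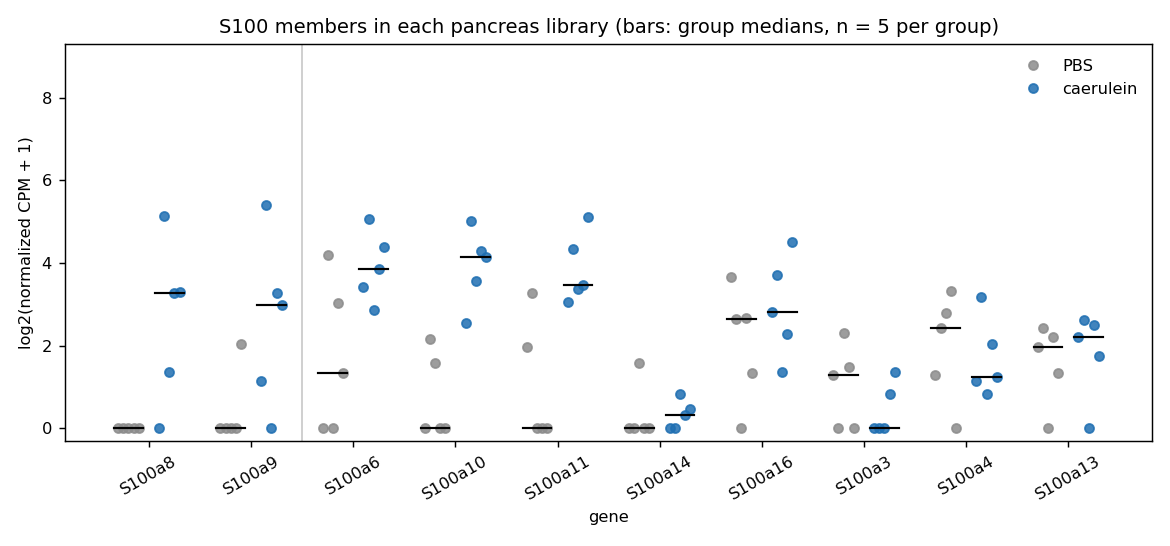
Level of the 10 members in each pancreas library as log2(normalized CPM + 1), with PBS libraries in grey, caerulein libraries in blue and a black bar at the median of each group of 5. All 5 blue points of S100a10 lie above the grey ones, and S100a8 is at 0 in all 5 PBS libraries and in caerulein library 9.

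Of 25 marker genes tested in pancreas 14 passed in edgeR, against 12.2% of all genes tested. DESeq2 called 27 of the 97 markers, against 8.74% of genes. Macrophage and monocyte markers (11 of 11 in both groups) ranged from 19 to 174 normalized CPM in PBS and from 93.3 to 1840 in caerulein. The 3 tested genes of this list had a median log2 fold change of 2.31, and Lyz2 passed (4.60, adjusted p = 0.0166, edgeR). Neutrophil markers had counts for 11 of 13 genes in PBS (Elane and Mpo were at 0) and 13 of 13 in caerulein, with sums of 5.23 to 25.2 and 10.9 to 63.1. The 3 tested genes of the Langerhans cell list, Cd74 (2.66), H2-Aa (2.61) and H2-Ab1 (3.69), which encode parts of MHC class II antigen presentation, were all higher on the log2 scale, while Cd207 was at 0 in both groups. Of the fibroblast markers Dcn was higher (2.78). All 10 acinar markers tested were lower with caerulein, and 9 of them passed the edgeR test. The acinar sum ranged from 7710 to 88550 in PBS and from 863 to 9416 in caerulein. Scaling by library totals alone moved the median over the pancreas genes tested to 1.86 on the log2 scale. The DESeq2 median was 0.61, over another set, the 8557 genes with an adjusted p there. Relative to the median under library totals, S100a11 was higher by 2.49 and S100a10 by 3.81, near their values after TMM. The part of these cells in the results was not tested.

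Whether the members responded differently in the tissues was tested as the difference between the DNFB and the caerulein response in a fit of all 20 libraries. None of the 8 members tested passed, against 0.264% of 8336 genes. At an unadjusted p under 0.05 there was 1 member of 8, S100a10, against 18.5% of all genes. Its difference was -3.64 on the log2 scale, with the skin response lower (standard error 1.10, adjusted p = 0.0891, edgeR quasi-likelihood test). DESeq2 gave S100a10 a difference of -4.59 (adjusted p = 0.0202), and it was the 1 member called there, against 5.15% of genes. In edgeR S100a10 also passed without acetone library 3 (adjusted p = 0.0349), PBS library 8 (0.0355) or caerulein library 9 (0.0449). For S100a8 (adjusted p = 0.732) and S100a9 (adjusted p = 0.490) no difference between the tissues was detected, with standard errors of 2.96 and 2.31 on the log2 scale.

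The control tissues differed in the members they expressed. In the same fit, 3 of 8 members were higher in acetone-treated skin than in PBS-treated pancreas, against 10.5% of genes called in either direction and 6.83% called higher. They were S100a14 (adjusted p = 0.00317), S100a3 (3.39, standard error 1.02, adjusted p = 0.0330) and S100a10 (3.11, standard error 0.88, adjusted p = 0.0237). Tissue and sampling cannot be told apart here. S100a14 and S100a3 passed the filter through skin libraries, since pancreas libraries held at most 8 counts of either. S100a10 held at most 4 counts in any PBS library and passed through the other groups. The share of 3 of 8 therefore describes a chosen set. S100a14 had 1 count over all PBS libraries, in library 15, and the ratio of pooled counts was 71 (95% exact interval 12.7 to 2807, counting error only). Without PBS 15 no count was left there, and S100a14 was at least 2.83-fold higher in acetone-treated skin. The call for S100a14 held without each of the 10 control libraries. S100a3 and S100a10 were both lost without acetone 11 or 12 or PBS 7, 16 or 17, S100a3 also without PBS 8 (adjusted p = 0.0642, edgeR) and S100a10 also without PBS 15 (0.0505). Without acetone 11 and 12 together the adjusted p in edgeR was 0.106 for S100a14, 0.541 for S100a3 and 0.371 for S100a10.

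Levels between genes were compared per kilobase of exon, with normalized CPM here scaled over all 20 libraries together, so that these values are not those of the single tissues above divided by length. In acetone-treated skin S100a11 was highest, with a median of 21.5 normalized CPM per kb (range 2.20 to 58.7), and S100a8 and S100a9 were last, at 1.15 and 0. In DNFB-treated skin the pair led, with S100a9 first at 70.9 (12.1 to 480) and S100a8 next at 60.7 (9.13 to 265), ahead of S100a11 at 30.2 normalized CPM per kb (21.9 to 79.5). S100a4 led in PBS-treated pancreas at a median of 14.5, while S100a8, S100a9, S100a10, S100a11 and S100a14 had a median of 0. That lead rests on 14 counts over all PBS libraries and on a short gene model of 584 exon bases. S100a6 and S100a16 held more counts there, 25 and 18. S100a11 led in caerulein-treated pancreas at 33.9 (21.5 to 88.1), followed by S100a10 at 18.6, S100a9 at 17.8 and S100a8 at 17.2 normalized CPM per kb. Neighbours in each order overlapped in their ranges, except S100a4 and S100a14 in caerulein-treated pancreas.

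The share of S100a8 and S100a9 in the counts of the 10 members needs no scaling between libraries. It was 9.09%, 1.18%, 0%, 0.329% and 0.761% in acetone libraries 1, 2, 3, 11 and 12. DNFB libraries 4, 5, 6, 13 and 14 gave 8.61%, 52.4%, 7.27%, 33.7% and 79.1%. All DNFB shares lay above those of acetone libraries 2, 3, 11 and 12, and acetone library 1 had 2 of 22 counts (95% Wilson interval 2.53% to 27.8%). The share was 0% in 4 PBS libraries and 40% in library 17, where it stood for 2 of 5 counts (11.8% to 76.9%). It was 3.57%, 41.2%, 5%, 24.3% and 13.9% in caerulein libraries 9, 10, 18, 19 and 20. In the 8 libraries with at least 20 counts of the pair, S100a8 counts were 0.734 to 1.29 times those of S100a9.

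**Figure D5:**
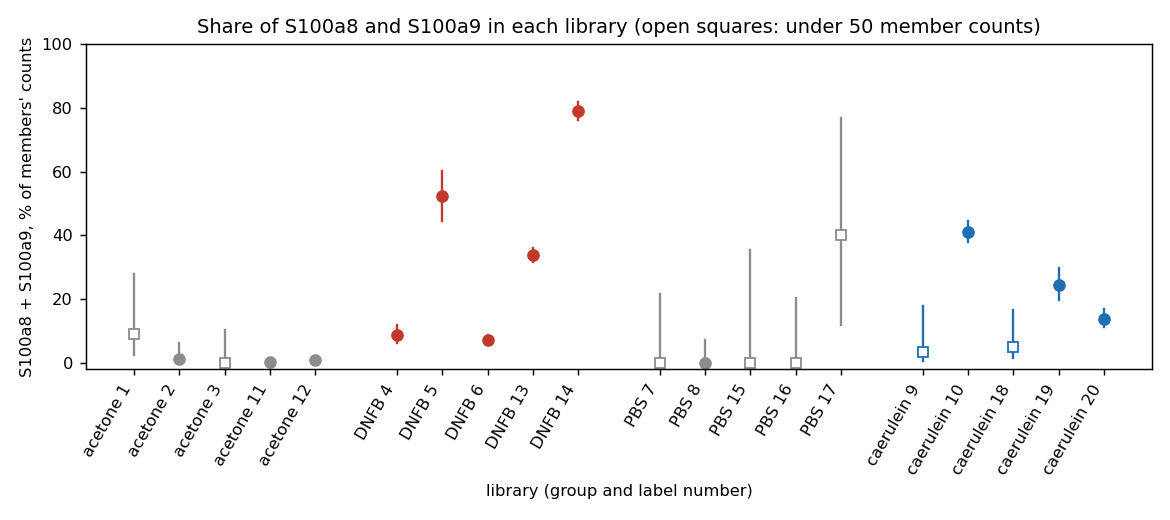
Share of S100a8 and S100a9 in the counts of the 10 members for each library, in percent, with 95% Wilson intervals that cover counting error only and open squares for libraries with under 50 member counts. DNFB libraries 5, 13 and 14 reach 33.7% to 79.1%, caerulein libraries 10, 19 and 20 reach 13.9% to 41.2%, and acetone libraries 2, 3, 11 and 12 stay at or below 1.18%.

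The rest of the family was mostly too low to test. Of S100a1, S100a5, S100a7a, S100b, S100g and S100z, S100a1 was the 1 gene tested in skin (log2 fold change -0.03, adjusted p = 0.998, edgeR) and none was tested in pancreas. S100a2, added after its values were seen, had at most 9 counts in any library. Of 7 S100-fused genes of the epidermal differentiation complex, 3 were tested in skin and none passed, with a median log2 fold change of 1.41 against 0.02 for all genes. The lowest p in this group were those of Flg, the filaggrin gene (1.81, adjusted p = 0.606), and Flg2 (-1.27, adjusted p = 0.905, edgeR).

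Genes that sense or answer calprotectin were mostly too low to test. Of 9 receptors, co-receptors and adaptors, 4 were tested in skin and none passed (median -0.04), with Cd14, the TLR4 co-receptor, at 2.92 (adjusted p = 0.495) and Myd88 at -0.41 (adjusted p = 0.976, edgeR). In pancreas 1 was tested, Bsg (1.83, adjusted p = 0.0932, edgeR). DESeq2, which keeps low genes, called Cd14 and Myd88 there, against 8.74% of genes. Cd14 held 1 count over all PBS and 1066 over all caerulein libraries, and Myd88 held 2 and 142. Of 11 genes downstream of these receptors, 6 were tested in skin and none passed in edgeR (median -0.17). Il1b (5.47, adjusted p = 0.0523) and Cxcl2 (3.59, adjusted p = 0.187, edgeR) had the lowest p, and DESeq2 called both, against 0.358% of genes. Nfkbia, which encodes an inhibitor of NF-kB, was the 1 gene tested in pancreas and was higher with caerulein (3.31, adjusted p = 0.0241, edgeR), against a median of 0.00 for all tested genes. DESeq2 called Nfkbia and no other of these 11 genes there.

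Of 7 binding partners of the other members, 6 were tested in skin and none passed (median -1.13), among them Ahnak (-1.42, adjusted p = 0.782) and Myh9 (-0.99, adjusted p = 0.878, edgeR). In pancreas 4 were tested (median 1.67) and Anxa2, the partner of S100a10, was higher with caerulein (3.01, standard error 0.92, adjusted p = 0.0384, edgeR). DESeq2 called Anxa2 and also Anxa1, which held 3 counts over all PBS and 650 over all caerulein libraries. Of 6 transcription factors that act on the S100a8 and S100a9 genes, 2 were tested in skin and none passed, Stat3 at -0.79 (adjusted p = 0.928) and Klf5 at -0.27 (adjusted p = 0.976, edgeR), and none was tested in pancreas.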

How the data were processed

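Per the labels and the methods of the study, the authors made libraries by a modified SMART-Seq2 protocol, aligned reads to mm10 with STAR 2.5.3 and deposited RSEM 1.3.1 expected counts per Ensembl gene. The annotation release was not given in the sources used here, strand was not kept, and reads carried no molecular identifiers, so intervals cover counting error only. Of the deposited expected counts 94.7% were whole, all were rounded, and 0 columns of values were left unused. Read totals per library and the counts outside satellite-like genes set the precision, and 3 counts stood for 0.000134% to 0.000379% of a library.

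Genes were kept by filterByExpr (minimum count 10), scaled by TMM and tested per tissue with the edgeR 4.0.16 quasi-likelihood test in R 4.3.3, with Benjamini-Hochberg adjustment at 0.05. The difference of responses and the control tissues came from a fit of all 20 libraries. DESeq2 1.42.0 was the alternative tool. Members below the filter were compared by a two-sided exact permutation test on log2(normalized CPM + 1 count of the median library), and their fitted fold changes carry no test. All members are named, with list genes past the threshold or otherwise the 2 with the lowest p, and for likeness the 3 genes with the highest Pearson r. Members and lists were chosen with earlier results of these data known, and 143 of 145 list genes were matched. In data simulated with 200 genes changed by 3 on the log2 scale, edgeR recovered 73% of them in skin (7265 genes), with 3 false calls. In pancreas (946 genes) edgeR recovered 70.5%, with 1 false call. DESeq2 recovered 90.5% in skin with 10 false calls and 89% in pancreas with 19. Whether these rates hold at the spread between the measured libraries was not tested. No 2 of the 40 library pairs within groups were identical. Other scalings, filters, fits and left-out libraries were tried.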

Additional observations from a re-analysis of the deposited data

Results flagged for a closer look

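Of 44 groups of 5 values examined, 4 held a library far from the rest, where chance gives about 1 in 20 groups of continuous values. That rate does not apply to 3 of the 4, in which the other libraries were all at 0, and both values of PBS library 17 are the same 2 counts. S100a9 reached 3.09 normalized CPM in PBS library 17, which is 2 counts, while the other 4 PBS libraries were at 0. S100a14 reached 1.98 normalized CPM in PBS library 15, which is 1 count, with 0 in the others. The share of S100a8 and S100a9 in the members' counts was 9.09% in acetone library 1, from 2 counts, against 0% to 1.18% in the other acetone libraries. The same share was 40% in PBS library 17, from 2 of 5 counts, against 0% in the others.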

How the results depend on the processing

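Depth limited these comparisons, most of all in PBS-treated pancreas, where the 10 members held 91 counts over 5 libraries. In skin 1 member was called, and 2 were called by DESeq2, in a fit of all 20 libraries, with no filter, with satellite-like genes left out and with the label number (1 to 10 against 11 to 20) as a covariate, whereas 0 were called with library totals only and without acetone libraries 11 and 12, and 0 to 2 when single libraries were left out. The log2 fold change of S100a8 in skin was 5.86 with library totals (adjusted p = 0.285, edgeR) and 5.86 without acetone 11 and 12 (0.165), and 5.38 to 6.46 without single libraries. That of S100a9 passed the threshold in DESeq2 (6.98), in the fit of all 20 libraries (7.21), with no filter (6.54), without satellite-like genes (7.28) and with the number covariate (7.59), and was 5.91 to 8.51 without single libraries. In pancreas 1 member was called, against 3 by DESeq2, 2 in the fit of all 20 libraries, 4 with no filter, 0 without satellite-like genes, 0 without caerulein 10 and 20 and 0 to 2 without single libraries. For the difference of responses 0 became 1 by DESeq2 and with no filter, and 0 to 1 without single libraries. For the control tissues 3 became 5 with no filter, 7 with library totals (where 74.5% of all genes were called higher), 0 without acetone 11 and 12, and 1 to 3 without single libraries. The exact comparison of S100a8 in pancreas, a mean difference of 2.60 on the log2 scale, was 1.35 without caerulein 10 and 20 (exact permutation p = 0.107) and 1.82 to 3.44 without single libraries, and that of S100a9 (2.15) was 1.33 to 2.70. The causes of these changes were not tested.

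Signs turned for members that passed no test. In skin S100a10 was 0.038 with the number covariate, 1.02 without acetone 11 and 12 and -0.50 to 0.14 without single libraries. S100a11 was -0.11 with no filter, -0.22 with library totals and -0.12 to 0.69 without single libraries. S100a14 was -0.12 with no filter, -0.25 with library totals and -0.12 to 0.64 without single libraries, S100a16 was -0.033 with library totals, and the exact difference of S100a13 was -0.95 to 0.20 without single libraries. Library totals moved the median of all pancreas genes to 1.86, and relative to it the fitted value was -0.85 for S100a3 and 0.06 for S100a4. In pancreas the exact difference of S100a3 was 0.15 with library totals, and that of S100a4 was 0.94 with library totals, 0.15 with counts outside satellite-like genes as library sizes and -0.80 to 0.076 without single libraries. That of S100a13 was -0.00032 without caerulein 10 and 20 and -0.19 to 0.63 without single libraries, and that of S100a14 was -0.11 to 0.37. Leaving out pairs of libraries was chosen after seeing the data. A filter of at least 10 counts in every library left no member to test. No paired analysis was possible because the label numbers run from 1 to 20 and no group shares a number with another.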
